A study of Mus musculus with 10 samples.

Results

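The genes described are 33 mouse genes that write, erase or read lysine acetylation: 11 histone deacetylases (HDACs), 7 sirtuins, 12 acetyltransferases and coactivators of that activity, and 3 bromodomain readers. They were chosen by gene name from a list of known acetylation enzymes and readers, and each name was found among the 57825 genes listed. The measurements come from bulk RNA sequencing of CD8+ T cells, the cytotoxic T lymphocytes, purified from co-culture with 4T1, a mouse mammary carcinoma cell line. According to the methods, the T cells came from spleens of female Balb/c mice, and mice 7 to 8 weeks old were used in the study. They were activated for 12 h on anti-CD3 with anti-CD28 and IL-2, kept for 24 h with or without sodium acetate (5 mM) and then co-cultured for 48 h, and the labels give day 3. The control group (5 samples) was co-cultured without acetate and the acetate group (5 samples) with it, so that activation and co-culture were common to both. Tumor cell signal in the sequenced RNA was not. The summed FPKM of epithelial and 4T1 markers was 47.96 to 60.4 in control and 179 to 381 in acetate samples. The comparison asks which acetylation genes differ in RNA level between these T cell samples with and without acetate, tumor cell RNA in them included. No label ties a sample to an animal, so p-values measure the spread between these samples, which may be technical.

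Acetyltransferases move the acetyl group of acetyl-CoA to lysines of histones and other proteins. HDACs remove it and release acetate, sirtuins remove it while consuming NAD, and bromodomains bind the acetylated lysine and bring transcriptional machinery to it. Cells make acetyl-CoA from acetate, which places acetate upstream of the writers and downstream of the HDACs. In T cells, acetylation of histones at effector genes accompanies activation, and HDAC7 leaves the nucleus after T cell receptor signalling.

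Sequence just before the gene start is shown for 4 genes on which the results turn, the acetyltransferase with the largest fall (Hat1), a class I deacetylase that fell with it (Hdac2), the gene with the largest rise (Hdac11) and the acetyltransferase that rose (Kat2a). Each run is the 250 bases before the start that RefSeq gives on GRCm38.p6, read 5′ to 3′ on the gene's own strand. Hat1 is at chr2:71389010-71389259 and Hdac2 at chr10:36974294-36974543, both on the plus strand, Hdac11 is at chr6:91156565-91156814 on the plus strand and Kat2a at chr11:100712468-100712717 on the minus strand. Capitals mark CCAAT, the GC box GGGCGG and the ETS letters CCGGAAGT on either strand.
Hat1: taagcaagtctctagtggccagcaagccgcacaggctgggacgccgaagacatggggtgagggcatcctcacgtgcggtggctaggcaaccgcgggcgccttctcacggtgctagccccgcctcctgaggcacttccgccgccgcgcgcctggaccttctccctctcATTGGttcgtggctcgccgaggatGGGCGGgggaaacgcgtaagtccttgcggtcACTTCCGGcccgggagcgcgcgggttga
Hdac2: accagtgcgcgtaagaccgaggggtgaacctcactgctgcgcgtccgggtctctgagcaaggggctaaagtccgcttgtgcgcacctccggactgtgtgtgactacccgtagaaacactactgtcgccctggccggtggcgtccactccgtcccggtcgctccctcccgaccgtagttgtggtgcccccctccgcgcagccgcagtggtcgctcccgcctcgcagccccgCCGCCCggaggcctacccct
Hdac11: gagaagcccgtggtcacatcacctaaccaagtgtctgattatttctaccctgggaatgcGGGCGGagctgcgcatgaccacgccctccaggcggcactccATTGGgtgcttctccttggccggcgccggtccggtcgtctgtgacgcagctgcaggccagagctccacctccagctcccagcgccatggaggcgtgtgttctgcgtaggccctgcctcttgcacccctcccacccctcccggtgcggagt
Kat2a: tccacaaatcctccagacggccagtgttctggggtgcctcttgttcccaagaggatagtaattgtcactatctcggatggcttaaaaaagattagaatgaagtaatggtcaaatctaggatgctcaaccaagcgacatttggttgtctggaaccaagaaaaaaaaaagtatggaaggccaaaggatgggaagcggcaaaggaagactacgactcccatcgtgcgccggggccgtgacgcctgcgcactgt

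Promoter entries were found for 28 of the 33 genes, with 1 to 4 starts for each gene and 41 windows in all. GGGCGG was present in 25 windows (61.0%), against 32.7% of 32851 promoters of the same length, and CCAAT in 14 (34.1%), against 33.8%. The windows are not independent, since those of Brd9 and of Kat6b overlap almost whole and count the same GC boxes again. Counted by gene, GGGCGG was found for 22 of 28. The 32851 promoters were taken without regard to expression, while all 33 genes are expressed here. CCGGAAGT was found in 3 windows (2.88% of all promoters), the NRF1 motif in 2 (0.782%) and TATAAA in 2 (12.4%). The CRE letters TGACGTCA (1.55%) did not occur in these windows. Nor did those of E2F, either TTTCGCGC or TTTGGCGC (0.655% of all promoters together). The Hat1 run holds the CCAAT box, the GC box and the ETS letters once each, Hdac11 holds the CCAAT and GC boxes, Hdac2 holds the GC box, and Kat2a holds none of the motifs searched.

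The values are FPKM, a fragment number corrected for the length of the gene and the fragments of the sample, and they refer to between 16306447 and 18853726 fragments per sample. Acetate replicate 1 had 20233 genes above 0, against 24681 to 25088 in the other acetate samples, and control replicate 1 had 22291, against 23786 to 24054 in the other control samples. T cell markers were present in every library, with Cd8a at 75.97 to 81.9 FPKM in control and 72.2 to 81.6 FPKM in acetate samples. Of 12 T cell markers, 6 were called lower (Cd3d, Cd3e, Cd3g, Cd2, Cd5 and Lck) and 1 higher (Zap70), while Cd8a and Cd8b1 were not called. Cd3e was at 33.8 ± 1.07 and 26.3 ± 2.06 FPKM, with a log2 fold change of -0.36 (limma adjusted p = 0.000608). The summed FPKM of the list was 975.7 to 1088 in control and 888 to 1028 in acetate samples. Markers of epithelium and 4T1 cells were higher with acetate, with 8 of the 11 tested of 20 called higher and none lower, and their summed FPKM was 47.96 to 60.4 against 179 to 381. Of the defining epithelial genes, Krt8 rose from 3.42 ± 1.69 to 34.2 ± 13.1 FPKM and Epcam stood at 0.519 ± 0.229 and 0.699 ± 0.179 FPKM. The part of tumor cell RNA in the results was not tested, and in bulk RNA fewer cells of a type and less RNA per cell cannot be told apart. Summed FPKM of 8 myeloid markers was 3.30 to 6.52 against 6.92 to 10.2 (2 of 3 tested called higher, S100a9 at 0 in every library), that of 5 B cell markers 3.92 to 4.91 against 4.55 to 6.24, and that of 4 CD4 T cell markers 13.8 to 15.9 against 12.4 to 18.4 (1 called higher, Cd4). Krt7 and S100a8, both counted as higher, averaged under 0.5 FPKM in control samples (0.143 ± 0.127 and 0.398 ± 0.318 FPKM) and were tested only through their level in the acetate group.

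All 33 genes averaged 0.5 FPKM or more and were tested, and 12 were called at an adjusted p under 0.05. Higher with acetate were Hdac11, Kat2a, Hdac6, Hdac5, Hdac7 and Brd2, and lower were Hat1, Sirt6, Hdac1, Hdac3, Hdac2 and Crebbp. The called share, 36.4%, was near that of all 15710 genes tested by limma, of which 36.5% were called (17.6% higher and 19.0% lower). The 5 control and 5 acetate values did not overlap for 9 of the 33 genes (5 higher and 4 lower), or 27.3%, against 26.4% of all genes tested (13.1% higher and 13.3% lower). Both shares are close to those of the transcriptome, so how often these genes were called is no result about them. Without acetate replicate 1, which stood among the control samples for several genes, 8 were higher and 8 lower (48.5%, against 44.3% of all genes in the same fit), with Kat7 and Brd9 added above and Kat5 and Kat6a below.

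The changes were small. The median log2 fold change was 0.00 over the 33 genes and -0.02 over all genes tested, and the median size without regard to sign was 0.15 against 0.26. Of the 12 called genes, 10 changed by less than 0.5 on the log2 scale, and only Hdac11 passed an absolute log2 fold change of 1, which 9.51% of all genes tested did. That of Hdac11 depends on the pseudocount, and was 0.61 with 1 in place of 0.1. For the 24 genes averaging 5 FPKM or more, 41.7% were called, against 45.6% of the 7800 genes at that level.

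**Figure D1:**
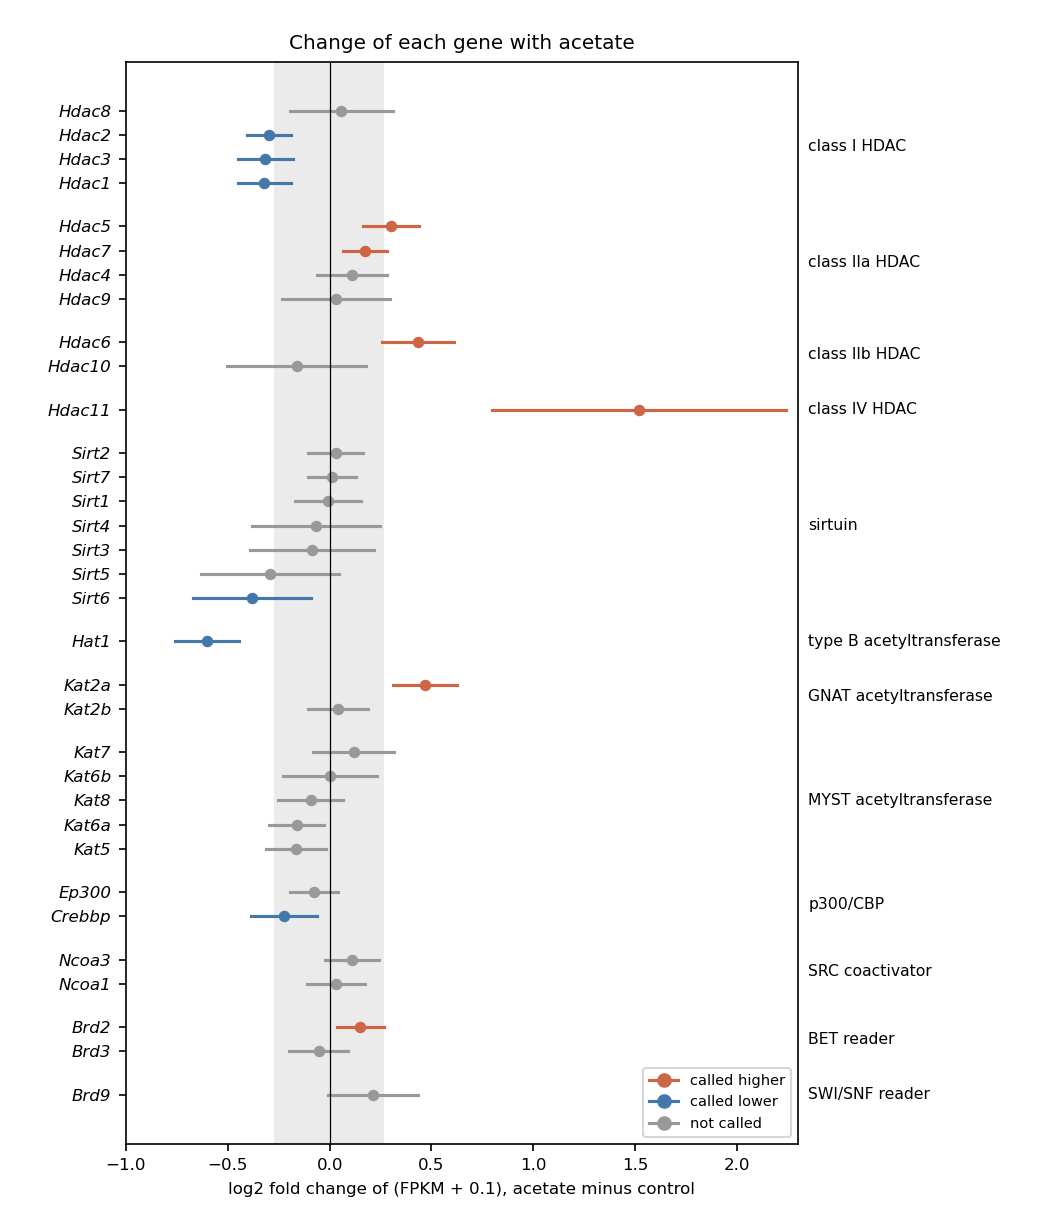
Log2 fold change of (FPKM + 0.1), acetate minus control, of each of the 33 genes with its 95% interval from limma, grouped by enzyme class and colored by call. Hdac11 stands far to the right at 1.52, Hat1 farthest to the left at -0.60, and 10 of the 12 called genes lie within 0.5 of 0. On FPKM as deposited, Hdac1, Hdac2 and Hdac3 lie together near -0.3, and 2 other scalings leave them negative but not called.

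Class I HDACs are the nuclear deacetylases of the large corepressor complexes, and 3 of the 4 were lower with acetate on FPKM as deposited, each by about the same amount. Of all genes tested 19.0% were lower, and of those averaging 5 FPKM or more 30.2%. Hdac1 and Hdac2 are the paired catalytic subunits of the NuRD, Sin3 and CoREST complexes, and Hdac3 is that of the NCoR/SMRT complex. Hdac1 (chr4:129409897-129436506, strand minus in the deposited table) measured 66.1, 68.1, 63.8, 68.7 and 69.00 FPKM in the control samples and 59.3, 50.9, 56.3, 48.5 and 54.3 FPKM in the acetate samples. Every acetate sample lay below every control sample, with a log2 fold change of -0.32 (SE 0.06, limma adjusted p = 0.00155).

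Hdac2 (chr10:36850540-36877885, strand plus) measured 30.8, 29.3, 31.5, 30.5 and 29.2 FPKM without acetate and 25.4, 23.8, 25.2, 22.5 and 25.99 FPKM with it. Again the groups did not overlap, with a log2 fold change of -0.30 (SE 0.05, limma adjusted p = 0.000862). For Hdac3 the values were 22.6, 24.7, 23.3, 25.1 and 25.6 FPKM in control and 20.1, 20.5, 19.8, 17.00 and 20.04 FPKM in acetate samples. These groups were also separate, the lowest control sample lying above the highest acetate sample, with a log2 fold change of -0.32 (SE 0.06, limma adjusted p = 0.00231). Hdac8, which deacetylates the cohesin ring, was far less abundant (2.42 ± 0.276 and 2.53 ± 0.332 FPKM), and its log2 fold change was 0.06 (95% interval -0.19 to 0.31, limma adjusted p = 0.725). The summed FPKM of the class was 120.8 to 126.8 in control and 90.3 to 107.3 in acetate samples. When the samples were rescaled to the same total of listed genes, Hdac1, Hdac2 and Hdac3 kept negative values of -0.14, -0.12 and -0.14 but missed the threshold (limma adjusted p = 0.097, 0.0991 and 0.0778), and the same held for scaling to T cell markers (-0.17, -0.15 and -0.17).

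Hdac1 has processed pseudogenes, copies nearly the same as its RNA, between which the counting can split fragments. Hdac1-ps (chr17:78799011-78800454 in the deposited table) stood at 81.1 ± 8.71 FPKM in control and 57.3 ± 8.76 FPKM in acetate samples, with a log2 fold change of -0.51 (SE 0.11, limma adjusted p = 0.00369). Gm4864 went the other way, from 5.90 ± 1.24 to 11.9 ± 3.63 FPKM, with a log2 fold change of 0.96 (SE 0.26, limma adjusted p = 0.0139). Of 14 Hdac1 pseudogenes 5 had any fragments, and together they held 32.8% to 37.8% of the summed fragments in control and 33.4% to 37.4% in acetate samples. Hdac1 and its pseudogenes together, a sum formed after the data were seen, amounted to 357 ± 14.3 units in control and 286 ± 21.97 in acetate samples on the FPKM scale without the length correction (n = 5 each). Its log2 difference was -0.32 (two-sided exact permutation p = 0.00794, the smallest that 5 against 5 samples allow), as for Hdac1 alone. This holds for the scaling as deposited. With the same total Hdac1 alone was at -0.14 and not called (limma adjusted p = 0.097), and the sum was not tested there.

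Class IIa HDACs shuttle between nucleus and cytoplasm and bind MEF2 transcription factors, and 2 of the 4 were higher with acetate on FPKM as deposited. Of all genes tested 17.6% were higher. Hdac7, the most abundant of them, measured 47.8, 43.9, 45.7, 45.03 and 41.02 FPKM in control and 51.9, 49.5, 50.7, 51.5 and 48.4 FPKM in acetate samples. All acetate samples were above all control samples, by a small step, with a log2 fold change of 0.17 (SE 0.05, limma adjusted p = 0.0156). Hdac5 measured 7.26, 6.22, 6.54, 7.02 and 6.49 FPKM without acetate and 8.75, 8.75, 7.72, 8.38 and 7.83 FPKM with it. Its groups did not overlap either, with a log2 fold change of 0.30 (SE 0.06, limma adjusted p = 0.00339). Hdac4 changed by 0.11 (95% interval -0.06 to 0.28, limma adjusted p = 0.301) and Hdac9 by 0.03 (95% interval -0.24 to 0.30, limma adjusted p = 0.863). Their levels were 3.55 ± 0.208 and 3.85 ± 0.340 FPKM and 1.45 ± 0.140 and 1.49 ± 0.177 FPKM, control and acetate in turn. Hdac4 was called higher with the same total (0.28, limma adjusted p = 0.0159) and with T cell markers (0.25, limma adjusted p = 0.0238). The summed FPKM of class IIa was 52.9 to 59.7 in control and 61.8 to 65.7 in acetate samples.

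Hdac6, a cytoplasmic tubulin deacetylase of class IIb, was higher with acetate, at 4.19, 4.87, 4.56, 4.38 and 3.90 FPKM in control and 5.56, 6.78, 5.84, 6.05 and 5.50 FPKM in acetate samples. The lowest acetate sample exceeded the highest control sample, with a log2 fold change of 0.43 (SE 0.08, limma adjusted p = 0.00173). Across the acetate samples Hdac6 followed the order of the summed FPKM of epithelial and 4T1 markers. The part of tumor cell RNA in the rise of Hdac6 was not tested. Hdac10, the polyamine deacetylase of the same class, gave 3.86 ± 0.384 and 3.50 ± 0.785 FPKM and a log2 fold change of -0.16 (95% interval -0.51 to 0.18, limma adjusted p = 0.449). Acetate replicate 1 was its lowest sample at 2.27 FPKM, and without it the log2 fold change was -0.02 (limma adjusted p = 0.892).

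Hdac11, the sole class IV HDAC and known as a remover of long-chain fatty acyl groups, had the largest relative change of the 33 genes at the lowest level. It measured 0.140, 0.164, 0.335, 0.347 and 0.346 FPKM in control and 1.595, 0.978, 0.661, 0.829 and 0.720 FPKM in acetate samples. Acetate replicate 1 was the highest, and all acetate samples were above the control samples. These values rest on 9 to 22 fragments per control and 42 to 105 per acetate sample, and the ratio of the group means was 3.59. The log2 fold change was 1.52 (SE 0.33, limma adjusted p = 0.0042), and with a pseudocount of 1 it was 0.61 (limma adjusted p = 0.00466). Its control mean was under 0.5 FPKM, so it was tested only through its level in the acetate group, the only one of the 33 genes for which this held. In the same acetate samples the summed FPKM of the epithelial and 4T1 markers was 204, 381, 259.6, 301 and 179, in order of replicate number, and its part in the rise of Hdac11 was not tested. Without acetate replicate 1 the log2 fold change was 1.33 (limma adjusted p = 0.00617).

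The makeup of the HDAC RNA can be read within each sample, where no scaling between samples enters. Hdac1 held a mean of 35.5% of the summed FPKM of the 11 HDAC genes in control samples (34.1% to 36.9%) and 30.8% in acetate samples (29.2% to 32.5%). Hdac7 held 23.6% (21.96% to 25.2%) and 28.8% (27.7% to 31.0%). The ranges of both genes were separate between groups, Hdac1 losing share and Hdac7 gaining it. Hdac2 went from 16.01% to 14.1% and Hdac3 from 12.8% to 11.1%, while Hdac5 went from 3.55% to 4.74%, Hdac6 from 2.32% to 3.41% and Hdac11 from 0.141% to 0.544%. In both groups Hdac1 was the most abundant HDAC per length and Hdac11 the least.

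**Figure D2:**
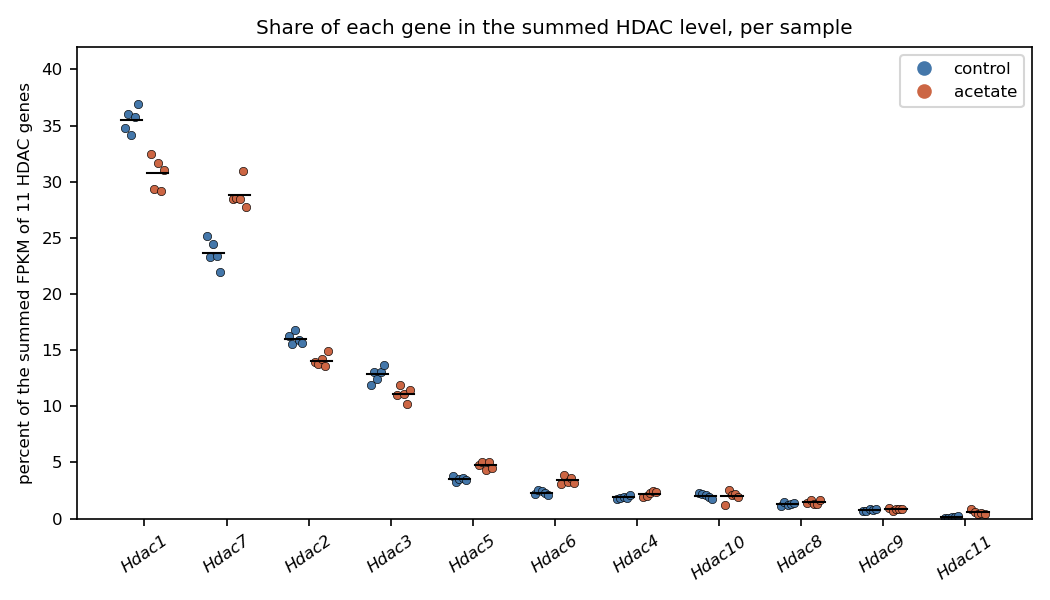
Percent of the summed FPKM of the 11 HDAC genes that each gene held, with 1 point per sample, control in blue and acetate in red. The Hdac1 points fall from a mean of 35.5% to 30.8% and the Hdac7 points rise from 23.6% to 28.8%, without overlap between groups.

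Among the 7 sirtuins, NAD-dependent deacylases, only Sirt6 was called on FPKM as deposited (14.3%, against 36.5% of all genes tested). Rescaling to the same total called Sirt2 and Sirt7 higher in its place. Sirt6, a nuclear sirtuin acting at chromatin, measured 15.6, 15.7, 12.7, 15.3 and 13.8 FPKM in control and 15.9, 10.5, 9.92, 11.3 and 9.28 FPKM in acetate samples. Acetate replicate 1 was the highest of all 10 samples, and the other 4 acetate samples lay below every control sample. The log2 fold change was -0.38 (SE 0.13, limma adjusted p = 0.0428). Without acetate replicate 1 it was -0.51 (limma adjusted p = 0.000569), and the call was lost when any of 8 other samples was left out.

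Sirt2, mainly cytoplasmic, was the most abundant sirtuin (21.9 ± 1.597 and 22.3 ± 1.33 FPKM) and changed by 0.03 (95% interval -0.11 to 0.17, limma adjusted p = 0.739). Sirt7, of the nucleolus, was at 14.8 ± 0.985 and 14.8 ± 0.518 FPKM and changed by 0.01 (95% interval -0.11 to 0.13, limma adjusted p = 0.895). Sirt1, of the nucleus, was at 5.29 ± 0.264 and 5.27 ± 0.459 FPKM and changed by -0.01 (95% interval -0.17 to 0.15, limma adjusted p = 0.939). These intervals are for FPKM as deposited, and with the same total the changes were 0.21 for Sirt2, 0.19 for Sirt7 and 0.17 for Sirt1 (limma adjusted p = 0.0349, 0.0236 and 0.113). The mitochondrial sirtuins Sirt3, Sirt4 and Sirt5 had log2 fold changes of -0.09, -0.07 and -0.29. Without acetate replicate 1 these were -0.21, -0.18 and -0.34 (limma adjusted p = 0.0685, 0.214 and 0.111). Sirt3 stood at 3.12 ± 0.193 and 2.99 ± 0.727 FPKM and Sirt4 at 5.26 ± 0.647 and 5.07 ± 1.11 FPKM, and Sirt5 was the lowest of the family at 1.20 ± 0.195 and 0.956 ± 0.112 FPKM.

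Of the 12 writers, 1 was higher (Kat2a) and 2 were lower (Hat1 and Crebbp) with acetate on FPKM as deposited, and with the same total 5 were higher (Kat2a, Kat2b, Kat7, Ncoa1 and Ncoa3) and 1 lower (Hat1). Hat1 acetylates newly made histones before their assembly into chromatin, and it had the largest fall of the 33 genes. Its values were 43.2, 44.6, 40.1, 42.1 and 42.7 FPKM in control and 31.4, 29.3, 27.4, 23.7 and 28.7 FPKM in acetate samples. The groups were far apart, with group levels of 42.5 ± 1.64 and 28.1 ± 2.85 FPKM (SD, n = 5 each) and a log2 fold change of -0.60 (SE 0.07, limma adjusted p = 0.000115). Hat1 was the only one of the 33 genes still called lower after rescaling to the same total (-0.43, limma adjusted p = 0.00112) or to T cell markers (-0.46, limma adjusted p = 0.00481).

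Kat2a (GCN5) and its paralog Kat2b (PCAF) are alternative catalytic subunits of the SAGA and ATAC coactivator complexes. Kat2a measured 11.5, 10.1, 10.6, 10.97 and 11.1 FPKM in control and 14.1, 17.3, 14.8, 15.97 and 13.3 FPKM in acetate samples. It was higher in every acetate sample than in any control sample, with a log2 fold change of 0.47 (SE 0.07, limma adjusted p = 0.000582). Across the acetate samples Kat2a followed the order of the summed FPKM of epithelial and 4T1 markers (204, 381, 259.6, 301 and 179). Hdac6 did so too, and the other genes called higher did not. The part of tumor cell RNA in the rise of Kat2a was not tested. Kat2b stood at 6.03 ± 0.410 and 6.19 ± 0.386 FPKM, and its change was 0.04 (95% interval -0.11 to 0.19, limma adjusted p = 0.674).

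The coactivators Crebbp and Ep300 acetylate histones at enhancers. Crebbp measured 5.02, 4.97, 4.70, 4.89 and 4.89 FPKM in control and 4.96, 3.98, 3.94, 4.18 and 3.90 FPKM in acetate samples. Acetate replicate 1 lay within the control samples and the other 4 acetate samples below them, with a log2 fold change of -0.22 (SE 0.07, limma adjusted p = 0.0352). The call was lost when any 1 of 9 samples was left out, and without acetate replicate 1 the value was -0.28 (limma adjusted p = 0.0016). For Ep300 the change was -0.08 (95% interval -0.19 to 0.04, limma adjusted p = 0.284) at 9.92 ± 0.469 and 9.40 ± 0.460 FPKM.

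None of the 5 MYST acetyltransferases was called by limma on FPKM as deposited with all samples and 15710 genes (Kat7 was higher with the same total or T cell markers), and 2 of them (Kat5 and Kat6a) had an unadjusted p under 0.05. Kat6a was called lower by voom on recovered fragments, under median-ratio scaling, at a mean of at least 5 FPKM and without control replicate 4 or acetate replicate 1, and Kat5 without acetate replicate 1. Kat5, the catalytic subunit of the TIP60 complex, was at 9.70 ± 0.832 and 8.61 ± 0.447 FPKM, with a change of -0.17 (95% interval -0.31 to -0.02, limma adjusted p = 0.0738). Kat6a (MOZ) was at 11.8 ± 0.846 and 10.5 ± 0.501 FPKM, with a change of -0.16 (95% interval -0.30 to -0.03, limma adjusted p = 0.0564). Kat7 (HBO1), the most abundant of the family, stood at 17.5 ± 0.772 and 19.1 ± 2.58 FPKM and changed by 0.12 (95% interval -0.08 to 0.32, limma adjusted p = 0.339). Kat8 (MOF) gave 6.10 ± 0.330 and 5.72 ± 0.501 FPKM and a log2 fold change of -0.09, and Kat6b (MORF) gave 1.90 ± 0.0852 and 1.92 ± 0.249 FPKM and 0.00. Kat7 had values of 14.8, 19.6, 19.5, 19.8 and 21.8 FPKM in acetate samples against 16.6 to 18.6 FPKM in control samples, and without acetate replicate 1, its lowest, it was called higher (0.21, limma adjusted p = 0.00723). The nuclear receptor coactivators Ncoa1 and Ncoa3 were not called by limma or by voom without rescaling, and neither had an unadjusted p under 0.05. Ncoa3 was at 17.4 ± 0.183 and 18.8 ± 1.67 FPKM with a change of 0.11 (95% interval -0.02 to 0.24, limma adjusted p = 0.176), and Ncoa1 at 5.73 ± 0.164 and 5.87 ± 0.492 FPKM with 0.03 (95% interval -0.11 to 0.17, limma adjusted p = 0.739).

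Among the bromodomain readers, the BET proteins Brd2 and Brd3 bind acetylated histones and recruit transcription elongation factors, and Brd9 is a subunit of a SWI/SNF chromatin remodeler. Brd2 measured 46.95, 39.3, 43.5, 44.6 and 44.2 FPKM in control and 46.1, 48.2, 47.8, 49.4 and 50.7 FPKM in acetate samples. The groups overlapped, since acetate replicate 1 lay below control replicate 1, with a log2 fold change of 0.15 (SE 0.05, limma adjusted p = 0.0454). This call was lost when any of 8 samples was left out. Brd3 was at 9.78 ± 0.530 and 9.43 ± 0.786 FPKM, with a change of -0.05 (95% interval -0.20 to 0.09, limma adjusted p = 0.555). Brd9 measured 6.003, 5.16, 5.46, 5.69 and 5.80 FPKM in control and 5.13, 6.46, 6.66, 6.79 and 7.88 FPKM in acetate samples, and acetate replicate 1 was the lowest of all. Its change was 0.21 (95% interval -0.01 to 0.44, limma adjusted p = 0.122), and without acetate replicate 1 it was 0.30 (limma adjusted p = 0.00691).

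**Figure D3:**
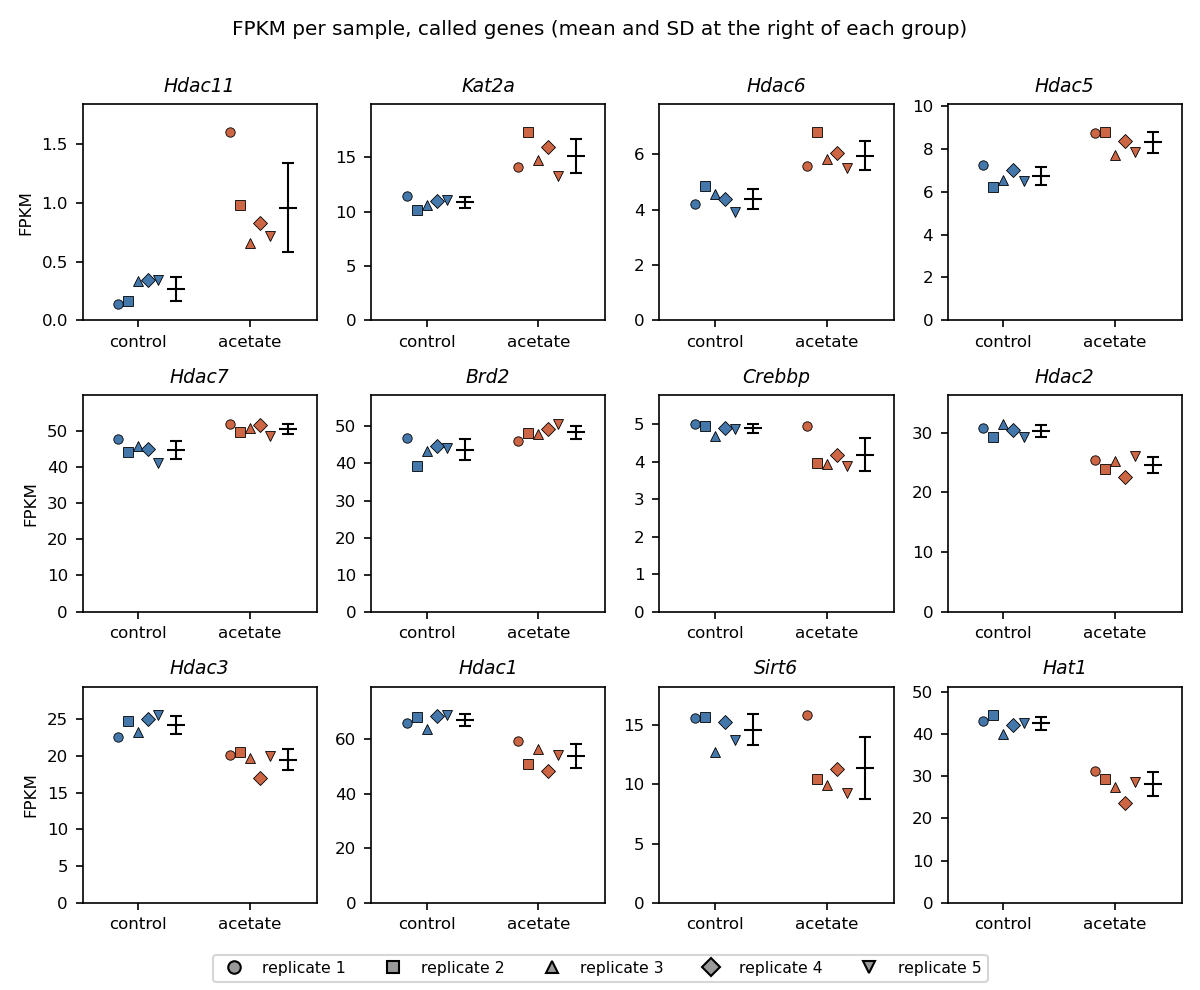
FPKM of the 12 called genes in each sample (symbols by replicate number) with mean and SD of each group, n = 5, on axes that start at 0. Control and acetate points are separate for 9 genes and overlap for Brd2, Crebbp and Sirt6, where acetate replicate 1 lies among or above the control points.

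The FPKM of a sample refer to all its counted fragments, and the listed genes held 95.5% to 97.9% of these in control but 89.8% to 92.1% in acetate samples. Rescaling every sample to the same total of listed genes moved the median change over all genes (log2) from -0.02 to 0.15, and scaling to T cell markers moved it to 0.13. Of the 33 genes, 14 were then called higher and 1 lower with the same total, and 10 higher and 1 lower with T cell markers. Hdac4, Kat7, Ncoa3 and Brd9 joined the higher genes under both scalings, and Sirt2, Sirt7, Kat2b and Ncoa1 with the same total alone. The split of all called genes moved likewise, from 48.1% higher with FPKM as deposited to 77.9% and 75.5%. Hdac5, Hdac7, Hdac6, Hdac11, Kat2a and Hat1 kept their call under every full-sample alternative that tested them and with each sample left out in turn. These alternatives do not separate tumor cell RNA from T cell RNA.

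**Figure D4:**
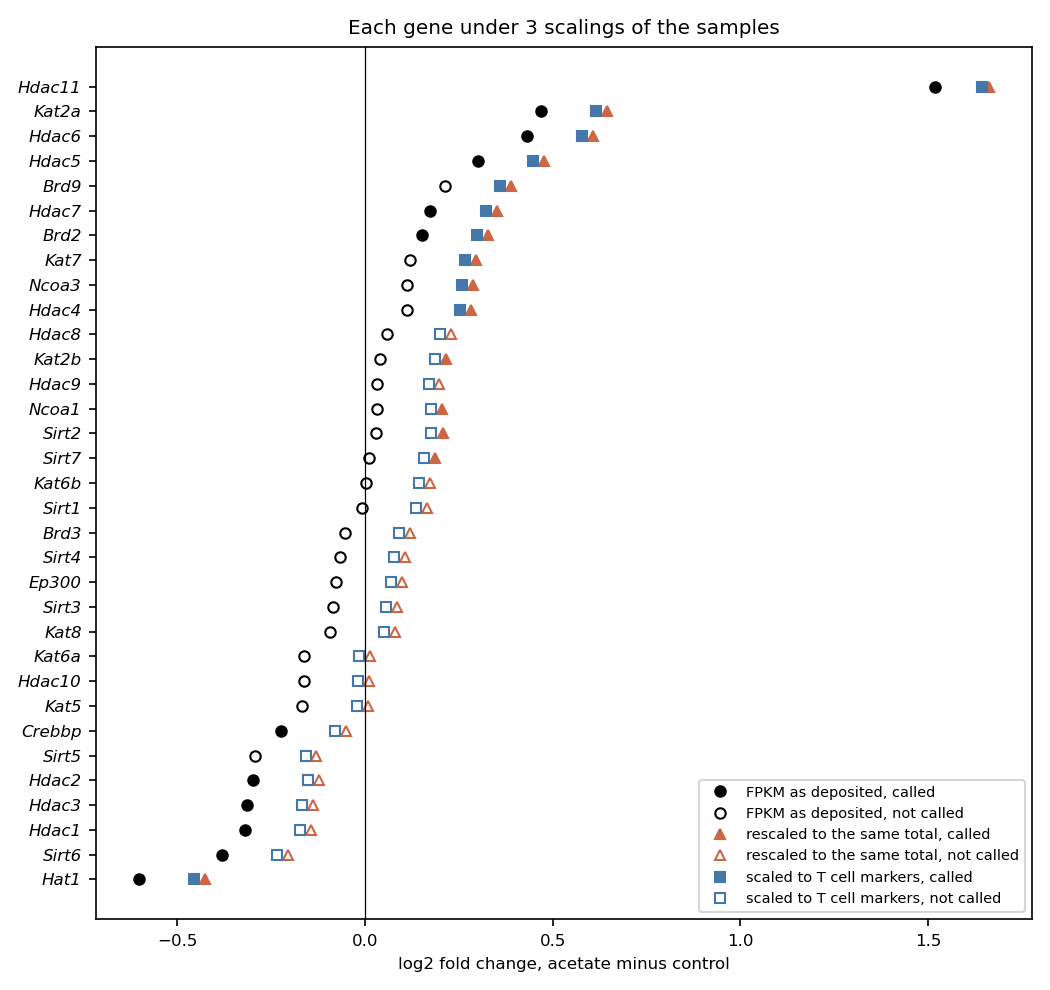
Log2 fold change of each of the 33 genes (acetate minus control) with FPKM as deposited (circles), rescaled to the same total (triangles) and scaled to T cell markers (squares), filled where called. Both other scalings shift the genes to the right by about the same step, so Hdac1, Hdac2 and Hdac3 stay below 0 with open symbols and Hat1 stays below 0 with filled ones.

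Ratios of paralogs within a sample, taken after adding 0.1 FPKM to each gene, hardly depend on the scaling. In 8 pairs compared by a two-sided exact permutation test, 0 ratios differed at an adjusted p under 0.05, although 4 had an unadjusted p under 0.05. A single ratio at the smallest possible p cannot pass over 8 pairs, since its adjusted exact permutation p is 0.0635 unless others tie with it. The count of 0 therefore does not show that the ratios were alike. The ratio of Hdac6 to Hdac10 was 0.985 to 1.20 in control and 1.52 to 2.39 in acetate samples, the one pair whose groups did not overlap (log2 difference 0.59, exact permutation p = 0.00794, the smallest possible, adjusted p = 0.0635). The ratio of Kat2a to Kat2b was 1.62 to 1.99 in control and 1.98 to 2.96 in acetate samples (log2 difference 0.43, exact permutation p = 0.0159, adjusted p = 0.0635). The differences were 0.21 for Brd2 to Brd3 and 0.13 for Hdac5 to Hdac7 (adjusted exact permutation p = 0.0794 for both). Hdac1 to Hdac2 was 2.02 to 2.36 in control and 2.08 to 2.33 in acetate samples, a log2 difference of -0.02 (exact permutation p = 0.675), with ranges that lie inside one another. Ep300 to Crebbp (0.15), Kat6a to Kat6b (-0.17) and Ncoa1 to Ncoa3 (-0.08) had adjusted exact permutation p-values of 0.209, 0.190 and 0.190. Single samples bear on these calls, since 4 ratios passed without acetate replicate 1 (Hdac6 to Hdac10, Kat6a to Kat6b, Ep300 to Crebbp and Brd2 to Brd3) and 3 without acetate replicate 3 (Hdac5 to Hdac7, Hdac6 to Hdac10 and Ncoa1 to Ncoa3).

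Of the 33 genes, 9 overlap another tested gene in the deposited positions, 7 of them on the opposite strand, and the strand setting of the counting is not given in the sources used here. The overlap is 29 bases for Hdac7 with Slc48a1, which itself rose (log2 fold change 0.43, SE 0.07, limma adjusted p = 0.000557). It is 3094 bases for Brd2 with H2-DMa (0.18, limma adjusted p = 0.0531) and 4006 bases for Kat5 with Rnaseh2c (-0.24, limma adjusted p = 0.134), so fragments in these spans cannot be assigned with certainty. Sirt2 shares 778 bases with Nfkbib (-0.27) and Ncoa3 shares 154 bases with Sulf2 (-0.31).

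Partners of these enzymes were followed in 6 lists of 127 further genes, of which 123 were tested, and 12 were higher and 35 lower with acetate on FPKM as deposited, or 38.2% called, against 36.5% of all genes tested. Under rescaling to the same total 40 were higher and 14 lower, and under T cell marker scaling 30 and 11, so the balance of directions in the lists turns with the scaling. The median log2 fold change was -0.07, against -0.02 for all genes tested.

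Of 33 HDAC corepressor subunits 4 were higher and 14 lower, or 54.5% called (median -0.15), where 17.6% of all genes tested were higher and 19.0% lower. Of these subunits 30 averaged 5 FPKM or more, with 4 higher and 13 lower, and of all genes at that level 15.4% were higher and 30.2% lower. Sap18, a Sin3-associated protein, was at 23.6 ± 1.41 and 15.3 ± 2.17 FPKM with a log2 fold change of -0.63 (SE 0.09, limma adjusted p = 0.000351), and Mbd2, the methyl-CpG reader of NuRD, at 49.1 ± 3.33 and 32.4 ± 5.63 FPKM with -0.61 (SE 0.11, limma adjusted p = 0.00139). Rcor2, a CoREST family member, rose from 4.18 ± 0.181 to 6.72 ± 0.948 FPKM, with 0.66 (SE 0.09, limma adjusted p = 0.000367). Acetyltransferase complex subunits were higher in 3 of 35 and lower in 10, or 37.1% called (median -0.03). Ruvbl1, an ATPase of the TIP60 complex, was at 53.4 ± 2.71 and 31.03 ± 2.42 FPKM with -0.78 (SE 0.06, limma adjusted p = 1.66e-05), Msl1, the scaffold of the MSL complex, at 28.5 ± 2.41 and 20.03 ± 3.51 FPKM, and Morf4l1, a chromodomain subunit of the TIP60 complex, at 23.9 ± 1.55 and 15.4 ± 5.10 FPKM. Morf4l1 in acetate replicate 1 was 24.4 FPKM, within the control range, against 12.1 to 13.8 FPKM in the other 4 acetate samples.

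Among other bromodomain genes, 1 of 30 tested was higher and 7 lower, or 26.7% called (median -0.05), against 36.5% of all genes tested. Trim66 had 8.72 ± 0.460 and 4.59 ± 0.385 FPKM and a log2 fold change of -0.91 (SE 0.07, limma adjusted p = 1.66e-05), Sp140, an immune cell reader, had 47.2 ± 3.96 and 36.1 ± 2.51 FPKM and -0.39 (SE 0.07, limma adjusted p = 0.00143), and Atad2 had 8.66 ± 0.442 and 12.6 ± 1.25 FPKM and 0.53 (SE 0.07, limma adjusted p = 0.000305). Of 7 tested readers with other domains 2 were lower (28.6%), Phf10 at 21.1 ± 1.23 and 14.5 ± 0.890 FPKM and Dpf2 at 19.4 ± 0.706 and 16.3 ± 0.481 FPKM. Of 9 further acetyltransferases 22.2% were called. Ncoa2 was higher, with 0.33 (SE 0.07, limma adjusted p = 0.005), and Esco1, an acetyltransferase of cohesin, lower, with -0.44 (SE 0.07, limma adjusted p = 0.000869).

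Genes of NAD supply and use, the cosubstrate of sirtuins, were higher in 3 of 10 tested and lower in 2, or 50% called (median -0.06). Of all genes tested 36.5% were called, 17.6% higher and 19.0% lower. Nampt, the rate-limiting enzyme of NAD salvage, fell from 25.2 ± 1.99 to 15.05 ± 1.07 FPKM, with -0.74 (SE 0.07, limma adjusted p = 3.26e-05), and its groups did not overlap. Cd38, an NAD-consuming surface enzyme, was at 0.616 ± 0.205 and 1.36 ± 0.421 FPKM with 1.04 (SE 0.27, limma adjusted p = 0.0107), and Qprt, of NAD synthesis from quinolinate, at 1.92 ± 0.427 and 2.90 ± 0.669 FPKM with 0.57 (SE 0.18, limma adjusted p = 0.0291). Both of the latter overlapped between groups and rest on low levels.

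**Figure D5:**
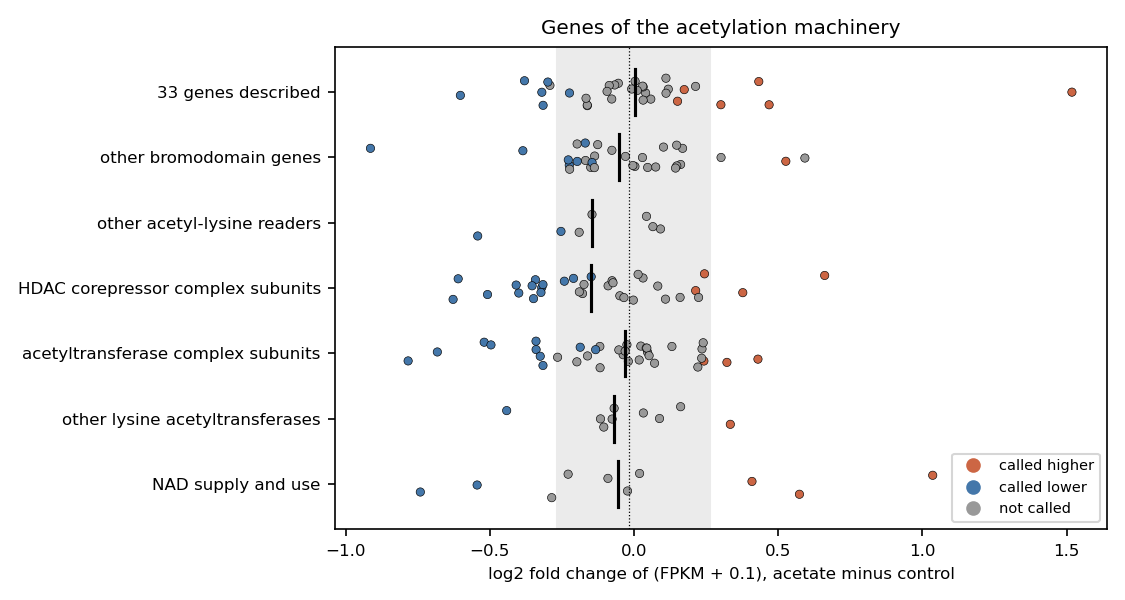
Log2 fold change of (FPKM + 0.1), acetate minus control and on FPKM as deposited, of each tested gene in the 33 genes and in the 6 partner lists, colored by call, with the span between the quartiles of all tested genes shaded. Corepressor subunits hold 14 genes called lower and 4 called higher, and the 33 genes hold 6 of each, a balance that changes under the other scalings.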

How the data were processed

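The authors deposited FPKM for 57825 genes in 10 samples, 1 column each and not pooled, and beside them the gene length in bases, an other value without normalization. Per the labels, libraries came from a NEBNext Ultra kit on a NovaSeq instrument. The submitters' processing notes name fastp, HISAT2 2.0.5, StringTie 1.3.3b and featureCounts 1.5.0-p3, while genome build and strand setting are not given in the sources used here. The deposited positions are not those of GRCm38, since 1467 of 52073 shared genes have the same start and end there.

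FPKM times length came out as whole multiples of 1 step for 100% of values (within 0.1), which gave the fragments behind each value. The 15710 genes that averaged 0.5 FPKM or more were compared on log2(FPKM + 0.1) with limma 3.58.1 in R 4.3.3, with trend and robust moderation, and called where the p-value, adjusted by Benjamini-Hochberg over all of them, was under 0.05. The pseudocount understates the change of low genes. Ratios of 8 paralog pairs were compared by exact permutation over all splits (scipy 1.17.1), adjusted over the pairs. Figures were drawn with matplotlib 3.10.9.

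The 33 genes and the partner and marker lists were chosen with earlier results of these data known. Named were all 33 genes and, in each partner list, up to 3 called genes with the largest absolute change. Slc48a1, H2-DMa, Rnaseh2c, Nfkbib, Sulf2, the Hdac1 pseudogenes and the order of the printed promoters follow from overlap, sequence copies or the results. Alternatives were pseudocounts of 1 and 0.01, no filter, a mean of at least 5 FPKM, 3 other scalings (same total, median ratio, T cell markers), limma without trend and robust moderation, voom on recovered fragments, the replicate block, each sample left out and replicate 1 left out of both groups. The sum of Hdac1 with its pseudogenes was added after the data were seen. Promoters came from RefSeq on GRCm38.p6.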

Additional observations from a re-analysis of the deposited data

Results flagged for a closer look

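Of 66 groups of 5 values (33 genes in control and acetate samples), 1 held a sample far from the others, where chance gives about 3.3. Hdac3 in acetate replicate 4 was the lowest of its group at 17.0 FPKM, the other 4 acetate samples lying at 19.8 to 20.5 FPKM, and on the log2(FPKM + 0.1) scale its gap to the nearest was 0.797 of the range of the group, above the critical value of 0.71.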

How the results depend on the processing

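Rescaling to the same total gave 14 genes higher and 1 lower of the 33, and scaling to T cell markers 10 higher and 1 lower, against 6 and 6 on FPKM as deposited. In the partner lists these scalings gave 40 higher and 14 lower, and 30 higher and 11 lower, and leaving out replicate 1 of both groups gave 19 higher and 41 lower, against 12 and 35. All called genes split into 4900 higher and 1387 lower with the same total and 4134 and 1343 with T cell markers, against 2764 and 2978. Hdac11 was at 0.61 with pseudocount 1 and 1.83 with 0.01, against 1.52. A mean of at least 5 FPKM left 7800 genes to test and 3733 called, and Hdac11 was among the genes not tested.

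Of the 12 called genes, 6 kept their call in every full-sample alternative that tested them and 9 with each sample left out. Hdac1, Hdac2 and Hdac3 lost it under the same total and T cell markers, as did Sirt6 and Crebbp, which also lost it when most single samples were left out and without a filter, Sirt6 without trend and robust moderation and Crebbp with the block. Brd2 lost it when most single samples were left out, under median-ratio scaling, without trend and robust moderation, without a filter and with the block, and the cause was not tested. The sign of genes that were not called changed with the same total and T cell markers for Sirt1 (0.17 and 0.14), Sirt3 (0.085 and 0.057), Sirt4 (0.11 and 0.078), Kat8 (0.081 and 0.051), Ep300 (0.098 and 0.068) and Brd3 (0.12 and 0.092), and with the same total for Hdac10 (0.010), Kat5 (0.0088) and Kat6a (0.014). Under median-ratio scaling Sirt7 was at -0.0058 and Kat6b at -0.013. Without replicate 1 of both groups, Hdac9 was at -0.031, Hdac10 at 0.016, Sirt1 at 0.067 and Sirt7 at -0.013. With each sample left out in turn, the log2 fold change ran for Hdac9 from -0.011 to 0.10, for Sirt1 from -0.040 to 0.046, for Sirt2 from -0.0012 to 0.065, for Sirt4 from -0.18 to 0.013, for Sirt7 from -0.018 to 0.047, for Kat6b from -0.043 to 0.064 and for Ncoa1 from -0.0048 to 0.059, and the difference in the ratio Hdac1/Hdac2 from -0.053 to 0.00196. Pseudocount 1 gave 2 paralog ratios past the threshold, and leaving out single samples gave 0 to 4.

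The replicate numbers did not pair the samples: the correlations of same-numbered samples ran from -0.0283 to 0.0694. For 2 of 5 control samples the best match among the acetate samples was the one of the same number. With the replicate block 5 genes were higher and 5 lower (Brd2 and Crebbp were lost), 10 partner genes were higher and 32 lower, 5399 of all genes were called, and 0 paralog ratios passed, with a smallest possible exact permutation p of 0.0625. Depth limits Hdac11 most, with 9 to 22 fragments per control sample.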
